A study of Drosophila melanogaster with 3 samples.

Results

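The 38 genes described here encode basic helix-loop-helix (bHLH) transcription factors of Drosophila melanogaster and were chosen by name. They comprise 8 proneural genes of the achaete-scute and atonal families, the E protein gene da with the inhibitor gene emc, 4 mesodermal genes, 10 other tissue-restricted genes, 5 genes of Hairy/Orange-domain repressors, 7 bHLH-PAS genes including a coactivator, and 2 bHLH-leucine zipper genes. All 38 matched a protein-coding gene among the 13968 on the 7 chromosome arms of dm6, 37 by symbol and Side through a RefSeq synonym. The question asked of the data was where crp, itself a bHLH factor, sat at the genes of other factors of its fold.

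A bHLH protein binds DNA as a dimer: the helix-loop-helix joins the partners and each basic region reads one side of an E-box, CANNTG. The proneural proteins pair with the widely expressed E protein da to start neural fates, and emc, which has no basic region, withholds partners from DNA. Hairy/Orange proteins repress transcription with the corepressor gro, PAS proteins carry a second dimerization domain, and leucine zipper members include regulators of lipid synthesis. crp is the fly member of the AP-4 family, a group of bHLH-leucine zipper proteins known for binding the palindrome CAGCTG.

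Binding was measured by chromatin immunoprecipitation and sequencing with an anti-GFP antibody in a transgenic line that carries crp fused to GFP at the C terminus. The chromatin came from whole embryos of both sexes collected at 0 to 24 h, and the 3 samples, labelled as biological replicates, form 1 group without an untagged or control library analysed here. The deposited data were peak lists: relaxed lists of 30000, 28713 and 30000 peaks in replicates 1, 2 and 3, a pooled list of 28145, and a list of 5460 that met the authors' cutoff for the irreproducible discovery rate (IDR), a measure of how well peak ranks recur. The read depth is unknown, so peak signal was divided by the median signal of the 5460 strongest peaks of the same list, and the quotient is called relative signal. In whole embryos, strong binding in few cells and weak binding in many cannot be told apart. A gene had a promoter summit when the highest point of a peak lay within 500 bp of one of its annotated start sites, and where several did, the value given is that of the strongest. Of the IDR summits, 71.5%, 80.7% and 76.3% recurred within 100 bp among the 5460 strongest peaks of replicates 1, 2 and 3. The IDR list was made from the same embryos, so that recurrence is partly built in. Every IDR summit also had a match in the pooled list. The median signal of the 5460 strongest peaks was 367 in both, so these lists are not independent.

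The sequences under the promoter summits show the letters on which the site counts turn. The following 5 carry the AP-4 palindrome, set in capitals, within 50 bp of the summit, and each is on dm6, 5′ to 3′ on the gene's strand. At tai, the strongest summit, chr2L:9166515-9166607 on the plus strand is shown, and at its internal start chr2L:9176307-9176357. SREBP is shown at chr3L:19793806-19793906. At Oli and tx the site lay in a 5′ UTR, so 30 bases are shown, chr2L:17590076-17590105 and chr3R:26440925-26440954. At the tai summits transcribed UTR bases were left out.
tai first start: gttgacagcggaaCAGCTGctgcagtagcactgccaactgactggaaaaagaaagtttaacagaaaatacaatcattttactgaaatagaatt
SREBP: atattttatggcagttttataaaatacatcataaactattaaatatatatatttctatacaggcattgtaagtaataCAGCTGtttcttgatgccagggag
Oli: ggcgctaccgaaCAGCTGagcatacgagta
tai internal start: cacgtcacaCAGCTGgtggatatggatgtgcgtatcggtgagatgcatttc
tx: gggggcagtagtCAGCTGatttagctgcca
The summit of net, chr2L:87524-87624 on the minus strand, holds no copy of the palindrome and is shown for contrast.
net: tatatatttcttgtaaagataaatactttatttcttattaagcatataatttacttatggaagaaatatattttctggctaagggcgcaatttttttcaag

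crp summits lay at fewer of the bHLH promoters than of promoters in general in the IDR list, the pooled list and the strongest peaks of each replicate. IDR summits lay at the promoters of 6 of the 38 genes (15.8%): tai, SREBP, Oli, da, tx and net. The share was 33.4% among the other 13930 genes and 33.3% over all genes. The pooled list placed a summit at 17 of the 38 (44.7%), against 57.3% of the others and 57.2% over all. Among the strongest peaks of single replicates, 8 bHLH promoters (21.1%) had a summit in replicate 1, 4 (10.5%) in replicate 2 and 7 (18.4%) in replicate 3. The shares over all genes were 30.3%, 31.7% and 32.1% in the same replicates. Only SREBP, Oli and tai had a promoter summit among the strongest peaks of all 3 replicates (7.89%, against 24.8% of the others and 24.8% over all genes). At the other end, 11 of the 38 (28.9%) had no promoter summit in any list, close to the 30.3% of the others and the 30.3% over all genes. No test was made of these shares, since the genes were chosen by name with earlier results known. Summits common to the strongest peaks of a pair of replicates were then used in place of the IDR list. The count at bHLH promoters was 3 without replicate 1. It was 5 without replicate 2 and 4 without replicate 3, both including gce, which had no IDR promoter summit. Of the 6 genes, only Oli and SREBP stayed in every pair, and net stayed in none. The share of the other genes also fell, to 25.4%, 25.8% and 24.9%. The count among the strongest peaks of all replicates, 3 in full, was 5 (13.2%) without replicate 2, against 27.3% of the others. Leaving out a replicate can only keep or raise this count.

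**Figure D1:**
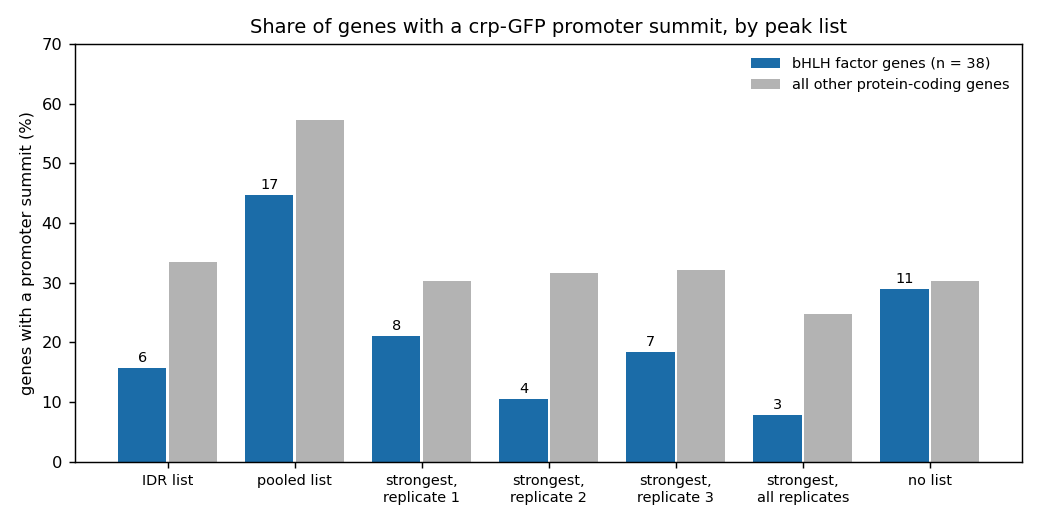
Share of genes, in percent, with a crp promoter summit in the IDR list, the pooled list and the strongest peaks of the replicates, for the 38 bHLH factor genes and for the other 13930 protein-coding genes. In the IDR list the bars stand at 15.8% for the bHLH genes and 33.4% for the others.

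None of the 8 proneural genes had an IDR summit at a promoter or in the gene body. Over all genes the shares were 33.3% and 5.18%, and the difference at these 8 genes was not tested. ac, sc and l(1)sc start sensory and central neural precursors, ase acts in neural precursors, ato founds chordotonal organs and the first photoreceptors, amos founds olfactory sensilla, and cato and tap act in later neural cells. ac, sc, ato and amos had no promoter summit in any list. l(1)sc had a summit in replicate 2 only, at a relative signal of 0.141, and cato in replicate 2 only, at 0.0921. ase had one in replicate 3 (0.0837) and in the pooled list (0.100), and tap in replicate 3 (0.0782). None of these reached the strongest peaks of its replicate, and the weakest IDR peak of the whole list had a relative signal of 0.456.

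The achaete-scute complex, where 4 of these genes lie side by side, was free of IDR summits throughout. From the first base of ac to the last of ase, chrX:370031-463176, the region spans 93146 bp, in which the average of the X chromosome would place 3.72 IDR summits. The relaxed lists did hold summits there: 3 in replicate 1, 9 in replicate 2 and 10 in replicate 3, against 20.7, 18.0 and 20.0 at the average of the X. The pooled list had 7 against 19.4, the strongest at a relative signal of 0.192. The nearest IDR summit lay between 6079 and 74697 bp from a proneural start site, with a median of 20044 bp, the longest median of the 7 classes.

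The partners of the proneural proteins both had relaxed promoter summits, and that of da entered the IDR list. The da summit lay 84 bp upstream of the start, at rank 2469 of the IDR list and a relative signal of 1.13. The replicates gave 0.751 in replicate 1, no promoter summit in replicate 2 and 1.13 in replicate 3, or 0.941 ± 0.269 (SD, n = 2). The replicates therefore split at this gene. Replicate 2 had its nearest summit 1556 bp away, next to the start of mRpS7, a mitochondrial ribosomal protein gene, at a relative signal of 1.10. The IDR list had a separate summit there too, at rank 3548. emc had a relaxed promoter summit in each replicate, at 0.234, 0.0990 and 0.389, and a pooled one at 0.284, 43 bp from its start. All values of emc lay under the 0.456 of the weakest IDR peak.

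None of the 4 mesodermal genes had an IDR summit at a promoter or in the gene body. Over all genes 33.3% had an IDR promoter summit, so a count of 0 among 4 genes says little. twi, which specifies mesoderm, had no promoter summit in any list. nau, the fly MyoD relative, had one in the pooled list only, at a relative signal of 0.0866, the lowest of the bHLH genes there. HLH54F, a factor of the caudal visceral mesoderm, had one in replicate 3 (0.122) and in the pooled list (0.131). Hand, a factor of the heart, had one in replicate 1 alone, at 0.142. The nearest IDR summit lay 3192 to 16271 bp from the starts of these genes.

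Of the 10 other tissue-restricted genes, Oli, tx and net had IDR promoter summits. At 3 of 10 this class was close to the 33.3% over all genes. Oli, an Olig relative of the ventral nerve cord, had replicate values of 2.46, 1.49 and 2.99 (2.31 ± 0.763, SD, n = 3), and its summit lay at rank 1368. It sat 79 bp upstream of an internal start and 877 bp from the first start, inside the 5′ UTR of the longer transcript, so counting only the most upstream start left 5 bHLH genes in place of 6. The replicate summits of Oli lay 9, 30 and 1 bp from the IDR summit.

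tx, a factor of tendon cells and wing, had 0.397, 0.474 and 0.868 (0.579 ± 0.253, SD, n = 3). Its summit lay 158 bp downstream of the start, in the 5′ UTR, with the palindrome centred 3.5 bp away, the closest among the bHLH genes. net, which represses wing vein fate, had 0.490, 0.347 and 0.419 (0.419 ± 0.0716, SD, n = 3), 187 bp upstream of its start. At rank 4652 it was the weakest bHLH promoter summit in the IDR list, and only 8.85% of the genes with an IDR promoter summit had a weaker one. Its value in the IDR list was 0.547, not far above the 0.456 at the end of that list.

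The remaining tissue-restricted genes lay outside the IDR list. HLH4C, an NSCL relative, came nearest, with a pooled relative signal of 0.403 and 0.628 in replicate 3, the only replicate with a summit there. That pooled summit lay 419 bp from the HLH4C start and 38 bp from the start of mRpL30, another mitochondrial ribosomal protein gene, so the genes cannot be told apart as its target. Fer3, a Ptf1a relative, had weak summits in all 3 replicates, at 0.123, 0.105 and 0.160. dimm, which sets the peptide-secreting state of neurons, had 0.216 and 0.165 in replicates 1 and 2 and none in replicate 3. Fer1 and Fer2 each had a summit in 1 replicate, at 0.0824 and 0.101. sage, a salivary gland factor, and HLH3B, a Tal relative, had none in any list.

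The 5 Hairy/Orange genes had no IDR promoter summit. Against 33.3% over all genes, a count of 0 among 5 genes says little. hry, the pair-rule repressor, came closest, with 0.534, 0.155 and 0.351 in the replicates and 0.334 in the pooled list. Replicate 1 alone placed hry among its strongest peaks. Side had 0.140 in replicate 3 and 0.106 pooled, while dpn, a neuroblast factor, and Hey, a Notch target, had no promoter summit in any list. cwo, a repressor in the circadian clock, had a promoter summit in replicate 1 only (0.199). It also had an IDR summit in an intron, 5675 bp from its start, with 0.595 in replicate 1, none in replicate 2 and 0.481 in replicate 3.

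Of the 7 bHLH-PAS genes, tai held the strongest crp summit of all 38. tai encodes a coactivator of nuclear receptors that also serves the juvenile hormone receptors. Its replicate values were 14.0, 12.8 and 17.2 (14.7 ± 2.30, SD, n = 3), the IDR value was 16.0 at rank 194, and 93.3% of the genes with an IDR promoter summit had a weaker one. The peak (chr2L:9166159-9167270) was 1112 bp wide and its summit lay 221 bp upstream of tai and 43 bp from the start of CG9586, on the opposite strand, so the summit belongs to the window of both genes. The replicates were close in height and less so in place: their summits lay 195, 223 and 48 bp upstream of the tai start. Replicate 1 had another summit 8 bp from the start, at 9.95. Because the summit of replicate 3 lay 173 bp from that of the IDR list, tai is lost from the promoter count without replicate 1, in which the summits of replicates 2 and 3 must lie within 100 bp.

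A further IDR summit of tai lay 1 bp upstream of an internal start, 9579 bp into the gene, at rank 3468. It had 0.703 in replicate 1 and 1.25 in replicate 3, and replicate 2 had no summit within 100 bp. tai thus carried IDR summits at 2 of its start sites, the only gene of the 38 with more than 1 at promoters.

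gce and Met encode the juvenile hormone receptors, and neither had an IDR promoter summit. gce had an IDR summit in an intron, 505 bp from the nearest start and so 5 bp beyond the window of 500 bp. Its values there were 1.33, 2.66 and 0.791 (1.59 ± 0.963, SD, n = 3), with replicate 2 highest, at rank 1695 of the IDR list. With a window of 1000 bp gce was counted, which gave 7 bHLH genes. Within 500 bp of its starts gce had relaxed summits in every replicate (1.33, 0.133 and 0.725) and a pooled one at 0.378. The 1.33 of replicate 1 is the same peak as its match to the intronic summit, so it is not a separate value. Met had promoter values of 0.488, 0.270 and 0.310 and a pooled value of 0.271, and its nearest IDR summit lay 4211 bp away.

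sim, the master gene of the ventral midline, had an intronic IDR summit 4172 bp from the nearest start, at rank 2737, with 0.776, 1.04 and 0.655 in the replicates (0.824 ± 0.198, SD, n = 3). The 3 sim values lay within 26 bp of the IDR summit. At its promoters sim had a single weak summit, 0.0741 in replicate 3. Of the circadian activator pair, cyc had promoter summits in replicates 1 and 3 (0.215 and 0.189) and 0.110 in the pooled list, and Clk had none in any list. ss, a factor of antenna and photoreceptor identity, had none either.

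Of the zipper genes, SREBP, the regulator of lipid synthesis, had the next strongest bHLH promoter summit after tai. Its replicate values were 7.72, 6.44 and 7.90 (7.35 ± 0.795, SD, n = 3), with the smallest SD relative to the mean among tai, SREBP, Oli, tx and net. The summit lay 79 bp upstream of the start (chr3L:19793483-19794205), at rank 618, and 79.3% of the genes with an IDR promoter summit had a weaker one. Starts of CG42637 and Gyc76C also lay within 500 bp of it, so the summit is in the window of these genes too. Replicate summits lay 36, 10 and 38 bp away. Usf had weak promoter summits in replicate 3 only, the stronger at 0.155.

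The order of the 6 bHLH promoters by relative signal was tai, SREBP, Oli, da, tx and net. The replicate ranges of tai, SREBP and Oli did not overlap with each other or with those of the weaker genes. da (0.751 to 1.13) overlapped tx (0.397 to 0.868), and tx overlapped net (0.347 to 0.490), so these neighbours do not differ beyond their spread. The da range covers replicates 1 and 3 only, since replicate 2 had no da promoter summit, so its place above tx is less certain. The 6 genes had the same rank and signal in the pooled list as in the IDR list. Low pooled values outside the IDR list are therefore largely built in. The other 32 genes all had pooled promoter values of 0.403 or less, or none: 11 had a pooled summit, 10 had summits in replicates only and 11 had none. Of the 32, relaxed promoter summits appeared in all 3 replicates for 5, in 2 replicates for 2, in 1 replicate for 13 and in none for 12. Over the 38, 10 genes had relaxed promoter summits in every replicate, whereas 41.9% of the other genes did.

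**Figure D2:**
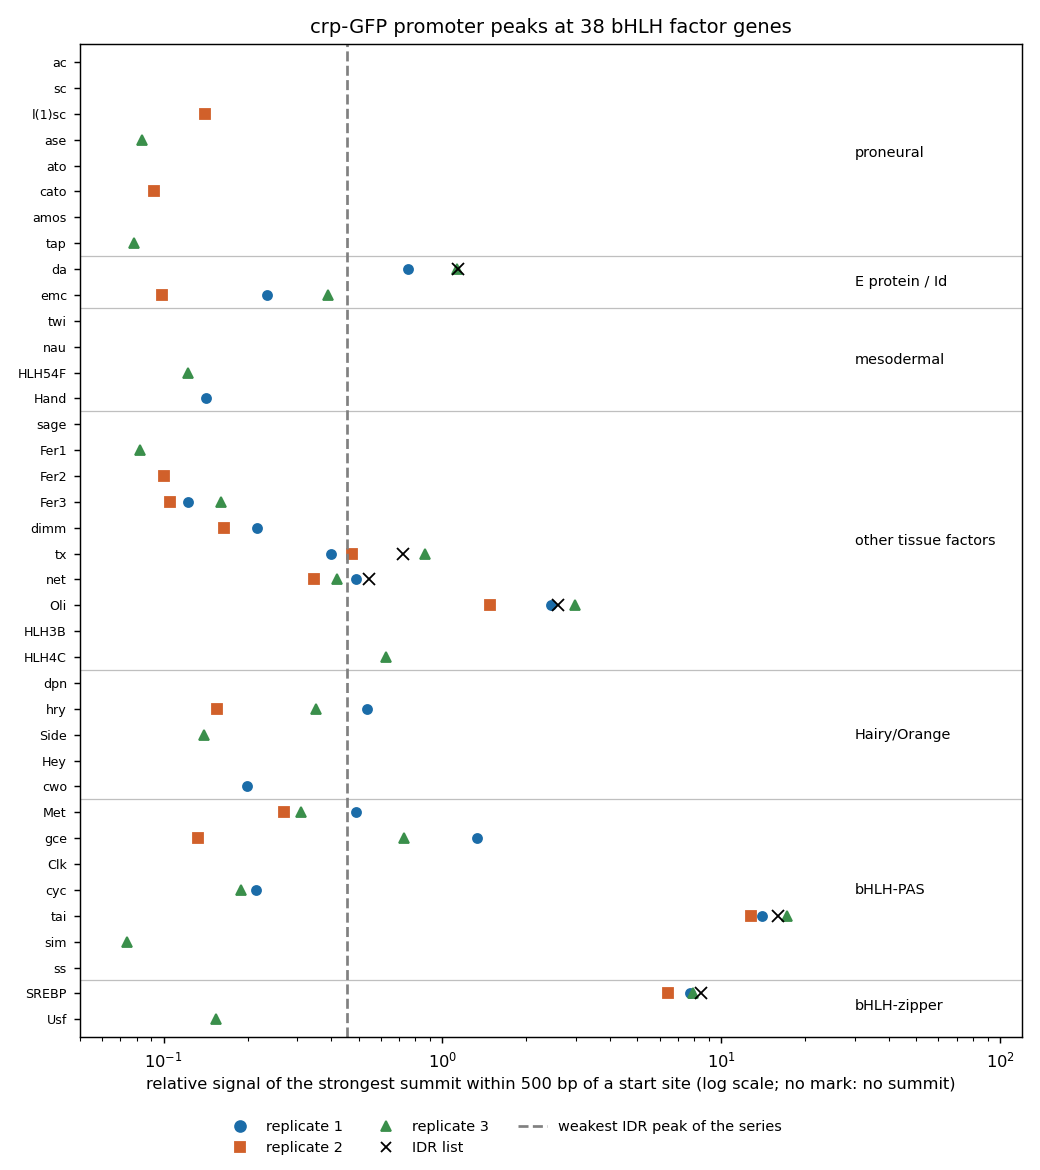
Relative signal (log scale) of the strongest promoter summit of each bHLH gene in each of the 3 replicates, with 1 row per gene by class. tai lies at 12.8 to 17.2, SREBP at 6.44 to 7.90 and Oli at 1.49 to 2.99, apart from all other genes, and most other genes have 1 weak point or none.

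The IDR list held 10 summits of bHLH genes, 7 at promoters, while 72.8% of all IDR summits lay at promoters, and 3 in the gene bodies of gce, sim and cwo. Gene-body summits outside promoters occurred in 3 of the 38 genes (7.89%), against 5.18% over all genes. With gene bodies extended by 2 kb on both sides the count was again 3 (7.89%), against 8.84% of the other genes. With the pair lists the count was 2 without replicate 1, 2 without replicate 2 and 1 without replicate 3, against 2.37%, 2.66% and 2.64% of the other genes. Of the 10 summits, 4 recurred among the strongest peaks of all 3 replicates, those of SREBP, Oli, gce and sim, and 53.2% of the other IDR summits did. With all relaxed peaks 6 of 10 recurred, against 81.5% of the others. In the remaining pair, 5 recurred without replicate 1, 7 without replicate 2 and 5 without replicate 3. The shares of the others were 60.4%, 63.3% and 59.9%.

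**Figure D3:**
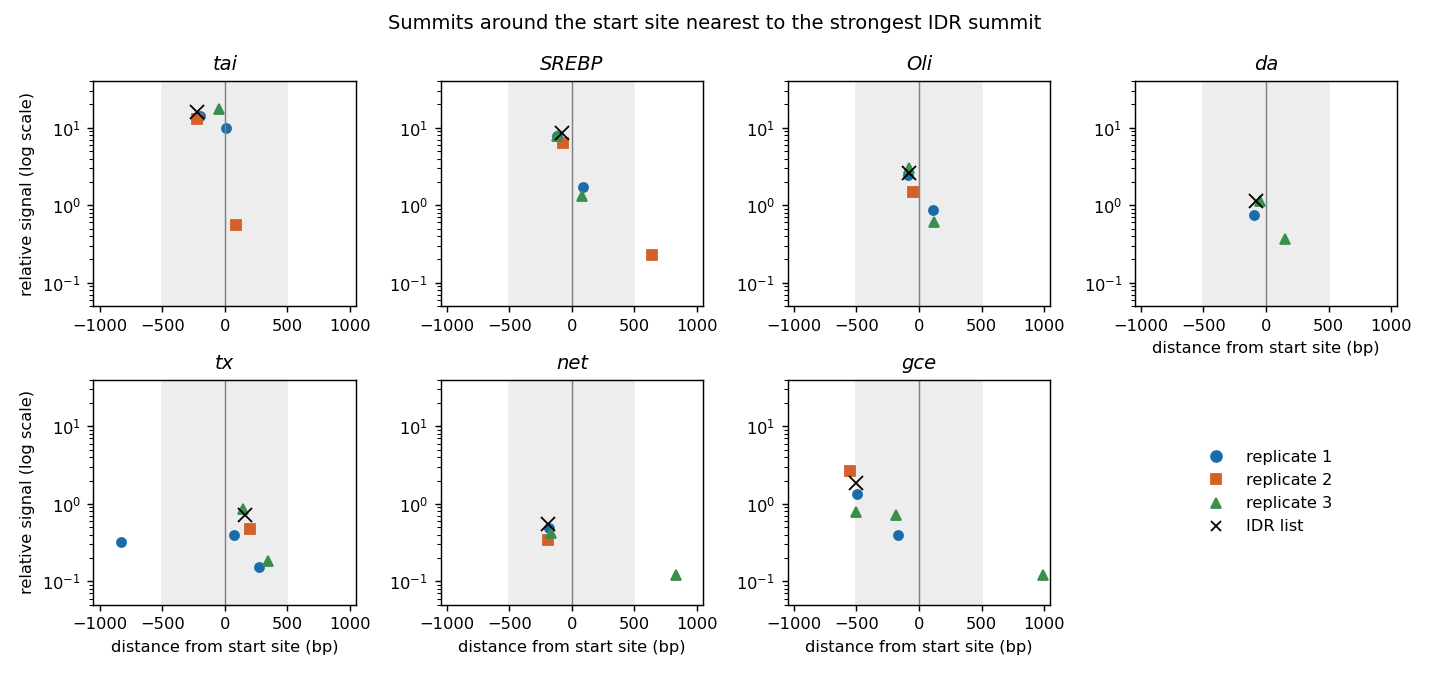
Distance in bp of the IDR and replicate summits from the start site nearest to the strongest IDR summit, for the 6 bHLH genes with an IDR promoter summit. gce, with an intronic IDR summit 505 bp from the nearest start, is also shown. The strongest replicate summits of Oli, net and SREBP lie within 38 bp of the IDR summit, those of tai lie up to 173 bp from it, and da has no promoter summit in replicate 2.

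The AP-4 palindrome lay within 50 bp of 5 of the 10 bHLH summits, against 28.5% of the other IDR summits. All 5 were promoter summits, both of tai and those of SREBP, Oli and tx, as printed above, so 5 of 7 promoter summits held it, against 29.9% of the other promoter summits. The site centre lay 26.5 bp from the tai summit, 29.5 bp from those of SREBP and Oli, 38.5 bp from the internal summit of tai and 3.5 bp from that of tx. At the same width centred 500 bp away, none of the 10 held it, against 4.81% and 4.94% of the others on the left and right. The 3 gene-body summits had none within 50 bp. Only the tx site lay within 25 bp of the summit, against 17.4% of the other summits, and within 100 bp the count stayed at 5, against 37.6%. With pair lists in place of the IDR list the count was 3 of 5 without replicate 1, 4 of 11 without replicate 2 and 2 of 6 without replicate 3, against 32.7%, 32.0% and 30.4% of the other summits of those lists. The other E-boxes were at 0 to 2 of the 10 summits each. CAACTG was at tai and tx, 2 of 10 against 6.13% of the other summits, and CAAGTG at da and cwo, 2 of 10 against 6.17%. CAAATG was at sim alone, against 8.44%, and CAGATG at Oli alone, against 5.28%. The remaining E-boxes were at none of the 10. They were rare elsewhere too, with CACGTG at 1.56% of the other summits, CATATG at 4.51%, CAATTG at 3.82%, CACCTG at 4.35% and CACATG at 4.99%, so 0 of 10 is near the background.

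Most bHLH genes with a palindrome near a start had no IDR summit there. CAGCTG occurred within 500 bp of a start in 13 of the 38 (34.2%), against 47.5% of the others. Of those 13, 4 had an IDR promoter summit (30.8%), tai, SREBP, Oli and tx, against 48.1% of other genes with the site. The other 9 were ac, l(1)sc, ase, twi, Fer1, HLH3B, gce, sim and Usf. Among genes without the site, 2 of 25 bHLH genes, da and net, had an IDR summit (8.00%), against 20.1% of the others.

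Short promoter motifs were searched on both strands from 250 bp upstream to 50 bp downstream of the start sites. Each of the 4 motifs counted was less frequent at the bHLH genes than at the others, with no test made. The motif TATCGATA, known as the DNA replication-related element of housekeeping promoters, was found at 1 of the 38, Met (2.63%), against 10.2% of the others, of which 61.0% had an IDR summit. The M1BP motif GGTCACACT was at none of the 38, against 6.78%. TATAAA was at 15 (39.5%), against 51.3%. CAGCTG, the AP-4 palindrome rather than a core promoter motif, was at 6 (15.8%), against 22.3%, in this narrower window.

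Genes with more start sites have more sequence in the promoter window. A single start site was annotated for 27 of the 38 (71.1%), against 73.5% of the others. Of these 27, 3 had an IDR promoter summit (11.1%), against 28.3% of other genes with 1 start. Among genes with more, 3 of 11 did (27.3%), against 47.5%.

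The nearest IDR summit lay farther from bHLH starts than from others at the median. It was 8054 bp away (quartiles 3142 to 18771 bp), against 4013 bp (quartiles 166 to 15762 bp) for the other genes. By class the medians were 20044 bp for proneural, 8440 bp for Hairy/Orange, 8045.5 bp for mesodermal, 6306 bp for other tissue-restricted, 5271 bp for partner, 4172 bp for PAS and 4027.5 bp for zipper genes. The proneural values overlapped those of every class, and no test was made.

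**Figure D4:**
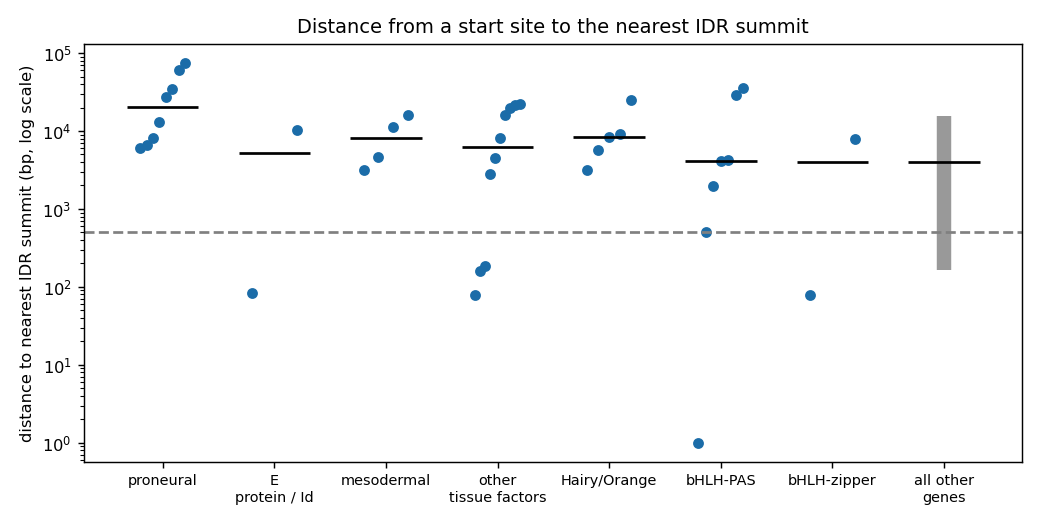
Distance (bp, log scale) from the start sites of each bHLH gene to the nearest IDR summit, by class, with the class medians and the median of the other genes. The proneural genes lie between 6079 and 74697 bp, and the 6 genes with a promoter summit lie under 500 bp.

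Outside promoters the bHLH gene bodies held weak relaxed summits that rarely reached the IDR list. Per 100 kb of gene body the bHLH genes had 0.876 IDR summits (3 in 342398 bp), against 1.17 in other genes. The relaxed densities ran the other way, with 20.4 pooled summits per 100 kb, against 14.3 in other genes. The replicates had 24.8, 18.7 and 23.1, against 16.4, 14.9 and 15.4.

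The long genes tai and twi held many of these weak summits, in different replicates. In the 83434 bp of tai there were 35, 8 and 33 gene-body summits in replicates 1, 2 and 3, none of them in the IDR list. In the 62952 bp annotated for twi, which also encloses 3 other genes, there were 0, 24 and 1. Only 42 genes had more than twi in replicate 2. None of its 24 summits had a match in replicate 1, which follows largely from the 0 summits there. The 24 were weak, between 0.0888 and 0.221 in relative signal. ss showed the same order with 0, 5 and 1, while net had 5, 0 and 4, cwo 10, 2 and 7, gce 10, 6 and 10, and sim 4, 4 and 6. The replicates thus differed in which gene bodies held weak summits, and replicate 2 had the lower share of its relaxed peaks at promoters, 27.1% against 36.4% and 37.9%. The part of that difference in the gene-body counts was not tested.

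**Figure D5:**
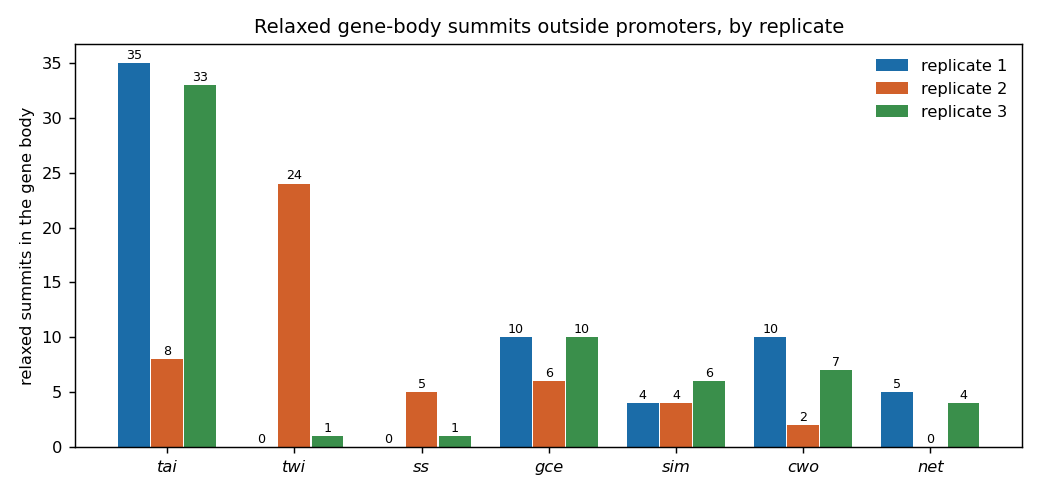
Number of relaxed summits outside promoters in the bodies of bHLH genes, for each replicate. tai has 35, 8 and 33 and twi has 0, 24 and 1 in replicates 1, 2 and 3.

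Genes that work with these factors were compared by counts. Of 18 other bHLH genes not among the 38, 10 had an IDR promoter summit (55.6%, against 33.3% of all genes). Within 250 bp it was 6 of 18, or 33.3%, against 29.0% of all genes. They included crp itself, at 4.14, 2.26 and 6.09 (4.16 ± 1.92, SD, n = 3), 306 bp from its start. The embryos carry a crp-GFP transgene and no control library was analysed, so its part in the signal at crp was not tested. Mondo, a sugar-sensing zipper factor, had 4.67, 2.11 and 5.74 (4.18 ± 1.87, SD, n = 3), 24 bp from its start. E(spl)m3-HLH, a Notch-driven repressor, had 1.06, 2.23 and 0.510 (1.27 ± 0.879, SD, n = 3). That summit lay 484 bp from its start, near the edge of the window of 500 bp. Replicate 2 was lowest at crp and Mondo and highest at E(spl)m3-HLH.

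Of 16 genes of the proneural pathway, 4 had an IDR promoter summit, or 25%, below the 33.3% of all genes. neur, a ubiquitin ligase of Notch signalling in sensory precursors, had 2.21, 2.54 and 3.58 (2.78 ± 0.714, SD, n = 3). chn, a zinc finger activator of achaete-scute genes, had 1.45, 3.14 and 1.05 (1.88 ± 1.11, SD, n = 3), and elav, an RNA-binding neuronal marker, had 1.21, 2.54 and 1.11 (1.62 ± 0.80, SD, n = 3). chn and elav were both highest in replicate 2. The fourth was gro, the corepressor of the Hairy/Orange proteins.

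Of the genes around SREBP, 7 of 8 sterol-sensing and lipid synthesis genes had an IDR promoter summit (87.5%, against 33.3% of all genes). With the most upstream start only it was 4 of 8, against 31.0% of all genes. ACC, the enzyme that makes malonyl-CoA, had 20.9, 24.5 and 27.2 (24.2 ± 3.15, SD, n = 3), above each of the 38 bHLH genes. SCAP, the escort of SREBP, had 7.86, 8.28 and 9.99 (8.71 ± 1.13, SD, n = 3), and S1P, the protease that cleaves SREBP, had 6.31, 6.07 and 8.13 (6.84 ± 1.13, SD, n = 3). The ranges of SCAP and S1P overlapped that of SREBP, and that of ACC did not.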

How the data were processed

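The deposited data were peak lists on dm6 from 3 biological replicates of crp-GFP embryos, with relaxed lists per replicate and pooled, and an IDR list. The signal of each peak was deposited by the authors in the peak files, which have no header. Not given in the sources used are the peak caller that sets its scale, the aligner, the IDR threshold and the depth. The notes deposited with the lists name replicate 2, the pooled list and further files not used here as sources of the IDR list. The control and the dm3 lists were not used here.

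Relative signal, windows (500 bp, match 100 bp, site 50 bp) and counts were computed with Python 3.11.15 and numpy 2.4.6; gene models were Ensembl release 115 (BDGP6.54), synonyms and sequences RefSeq. A gene-body summit lay inside a gene and outside every promoter window. The assignment, matching and motif counts were tested on simulated data. Every bHLH gene is accounted for, with full values for those with an IDR summit, and up to 3 genes per related list by IDR signal. The genes and lists were chosen with earlier results of these data known. No test was made: with 1 group there is no comparison of conditions. Alternatives changed the windows, the start sites, the peaks used, and left out each replicate in turn. The sequence under 1 promoter summit is not reported here.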

Additional observations from a re-analysis of the deposited data

How the results depend on the processing

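No paired analysis was possible because the 3 samples form 1 group. To leave out a replicate, the summits common to the strongest peaks of the other pair were used. The count of bHLH genes with an IDR promoter summit (6) was then 3 to 5, with gce newly counted without replicate 2 or 3. That of genes with a gene-body summit (3) was 1 to 2. The count with a summit among the strongest peaks of all replicates (3) was 3 to 5 when only the other pair was required. That of summits recurring in all replicates (4) was 5 to 7 in the same way. Requiring fewer replicates can only keep or raise these last counts. The palindrome count (5), an alternative added after seeing the data, was 2 to 4. It was 1 within 25 bp, 5 within 100 bp and 0 in the flank. All relaxed peaks gave 10 genes with summits in all replicates, which follows from the longer lists. Windows of 250 and 1000 bp, the nearest gene only and the most upstream start gave 5 to 7 promoters. The nearest-gene rule narrowed the gap to the other genes, with 15.8% against 25.3%, where the main rule gave 15.8% against 33.4%. Under it the pooled list gave 42.1% against 48.3%, and the strongest peaks of all replicates 7.89% against 16.9%. The other settings gave 15.8% against 29.1% (250 bp), 18.4% against 36.2% (1000 bp) and 13.2% against 31.1% (most upstream start). Depth is unknown, so an absent summit sets no upper limit on binding. The pooled list could not be remade without a replicate.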

Other observations

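Other lists touched by these factors were counted in the same way. Of 13 circadian clock genes, 7 had an IDR promoter summit (53.8%, against 33.3% of all genes). With the most upstream start only it was 4, or 30.8%, against 31.0% of all genes. jet, which encodes an F-box protein of light entrainment, had 8.03, 8.85 and 11.4 (9.42 ± 1.75, SD, n = 3) in relative signal. nmo, a kinase, had 4.36, 4.21 and 5.26 (4.61 ± 0.567, SD, n = 3), and sgg, the fly GSK3 kinase, had 1.31, 2.58 and 1.26 (1.71 ± 0.746, SD, n = 3). vri, Pdp1, dco and CkIIbeta also had an IDR promoter summit, while per, tim, cry, CkIIalpha, Pdf and Pdfr had none.

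Of 8 hormone response genes, which meet tai, Met and gce in ecdysone and juvenile hormone signalling, 3 had an IDR promoter summit (37.5%), close to the 33.3% of all genes. Eip75B, an early ecdysone response gene, had 9.06, 4.53 and 10.5 (8.04 ± 3.13, SD, n = 3), lowest in replicate 2. usp, the partner of the ecdysone receptor, had 3.16, 2.60 and 5.39 (3.72 ± 1.47, SD, n = 3), and ftz-f1, a nuclear receptor, had 0.590, 0.253 and 0.828 (0.557 ± 0.289, SD, n = 3).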
